A study of Mus musculus with 764 samples.

Results

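The genes described here are 7 whose transcripts mark regulatory T (Treg) cells: Foxp3, Ikzf2, Ikzf4, Il2ra, Nrp1, Tnfrsf4 and Tnfrsf18. They were chosen by name, and all 7 had a row of their own among the 23997 gene rows of the tables. Read counts came from single IL-10-producing CD4+ T cells, with libraries made by SMART-seq2, which copies whole transcripts and adds no molecular identifiers. The cells came from the spleen (574 cells) and the small intestine (190 cells) of mice treated with anti-CD3, an antibody that engages the T cell receptor complex. The study's methods describe double reporter mice in which eGFP reports Il10 and mRFP reports Foxp3, and both tissues came from such anti-CD3-treated animals, so no untreated cells were part of the comparison. The study set out to describe IL-10-producing cells outside the Foxp3+ lineage and also included IL-10-producing Foxp3+ cells as a control, but the labels do not say whether or where these plates hold them. They name no animal and no age either.

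Treg cells restrain other T cells, and the transcription factor Foxp3 holds their gene program in place. Helios (Ikzf2) and Eos (Ikzf4) are zinc finger factors of the Ikaros family, and Eos acts with Foxp3 as a corepressor. CD25 (Il2ra) is the chain that gives the IL-2 receptor its high affinity, neuropilin-1 (Nrp1) is a surface receptor used as a mark of thymus-derived Treg cells, and OX40 (Tnfrsf4) and GITR (Tnfrsf18) are costimulatory receptors of the TNF receptor family. Il2ra, Tnfrsf4 and Tnfrsf18 are also induced in conventional T cells after activation.

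The spleen cells filled well columns 1 to 24 of plate p1 and 1 to 12 of plate p2, and the small intestine cells columns 13 to 24 of p2. Spleen values are therefore given for 3 sets, the earlier columns of p1 (1 to 12), its later columns (13 to 24) and the spleen wells of p2. After removal of cells with few reads and of cells called S or G2M, 133, 145 and 122 spleen cells and 137 small intestine cells remained, with 162801 to 622997 reads on genes per kept cell. Cd3e reached 10 reads in 100% of kept cells and Cd4 in 97.9% to 99.3% per set. Myeloid and NK cell markers each stayed at or below 2.46% of cells in each set, and B cell markers at or below 2.76% in the spleen, whereas Cd79b reached 8.03% in the small intestine. Cd8a reached 10 reads in 19.7% of small intestine cells against at most 0.752% in a spleen set. Cd8b1 reached it in 5.84% of small intestine cells and in 9.84% to 14.3% per spleen set. Any of 5 epithelial markers reached it in 23.3% of cells of p1 columns 1 to 12 and in 9.02% to 12.4% elsewhere, mainly Epcam (13.5% against 3.65% to 6.21%) and Lgals4 (9.77% against 2.46% to 7.3%), while Krt8, Krt20 and Vil1 stayed at or below 3.65% in every set. Bst2, which activated T cells also express, reached 50.4% to 61.7% and Siglech at most 0.82%. The part of these transcripts in the results below was not tested. Since each sample was 1 cell and no animal was named, each set counted as 1 sample, no comparison has a replicate check and no p-value was computed. Tissue and well position on p2 went together and cannot be told apart.

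Levels are given as CPM, the reads of a gene scaled to the same total (1000000 gene reads) in each cell, and shares are of cells with at least 10 reads of the gene. Intervals are 95% exact binomial for shares and exact Poisson for summed reads, and cover counting error only, because PCR reads are not independent molecules. Where no cell reached 10 reads, the limit printed is 3 cells of the total, which is below the upper end of the exact interval. The stretches in front of Foxp3, Il2ra and Tnfrsf18 are shown because only for these 3 members did the RefSeq promoter window end at the gene start. Their expression played no part in this choice. Each run holds the 250 bases before the RefSeq gene start on the plus strand (GRCm38.p6): chrX:7579426-7579675 for Foxp3, chr2:11642542-11642791 for Il2ra and chr4:156026072-156026321 for Tnfrsf18. Capitals mark matches on either strand to the NFAT core GGAAA or the STAT motif TTCNNNGAA.
Foxp3: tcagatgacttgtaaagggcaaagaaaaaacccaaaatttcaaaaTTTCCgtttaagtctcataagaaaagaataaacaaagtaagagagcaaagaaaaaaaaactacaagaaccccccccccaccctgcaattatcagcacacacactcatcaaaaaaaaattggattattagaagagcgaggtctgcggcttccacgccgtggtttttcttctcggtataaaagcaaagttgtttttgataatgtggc
Il2ra: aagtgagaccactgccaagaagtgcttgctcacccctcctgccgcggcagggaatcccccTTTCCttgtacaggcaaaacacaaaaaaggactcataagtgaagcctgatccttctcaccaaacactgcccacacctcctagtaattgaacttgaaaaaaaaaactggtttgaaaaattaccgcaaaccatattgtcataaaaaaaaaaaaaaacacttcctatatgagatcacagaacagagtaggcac
Tnfrsf18: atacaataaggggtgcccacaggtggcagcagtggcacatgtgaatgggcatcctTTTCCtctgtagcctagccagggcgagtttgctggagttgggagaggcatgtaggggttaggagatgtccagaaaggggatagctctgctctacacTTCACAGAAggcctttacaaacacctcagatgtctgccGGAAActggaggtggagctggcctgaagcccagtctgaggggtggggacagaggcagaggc
The NFAT core matched in 1, 1 and 2 places, but 55.6% of 32851 RefSeq windows of this length held it. The STAT motif matched once, in front of Tnfrsf18, and 7.02% of all windows held it. The RUNX motif TGTGGT (14% of windows) and the forkhead motif TGTTTAC (3.17%) matched in none of these 3 runs. A match is a run of letters and not a measured site.

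Foxp3 was concentrated in the first columns of p1. At least 10 Foxp3 reads were found in 72 of the 133 cells of p1 columns 1 to 12 (54.1%, interval 45.3% to 62.8%), in 19 of 145 cells of p1 columns 13 to 24 (13.1%, interval 8.08% to 19.7%), in 5 of 122 cells of p2 (4.1%, interval 1.34% to 9.31%) and in 5 of 137 small intestine cells (3.65%, interval 1.2% to 8.31%). The interval of p1 columns 1 to 12 overlapped none of the others, while those of p2 spleen and small intestine overlapped almost fully. Mean Foxp3 was 277 CPM in p1 columns 1 to 12, 67.9 CPM in p1 columns 13 to 24, 24.4 CPM in p2 and 43.1 CPM in the small intestine. Medians were 153 CPM in p1 columns 1 to 12 and 0 in the other sets, and the lowest cell was at 0 everywhere. The highest cells were at 1743, 1598, 997 and 1623 CPM in the same order. Among cells with at least 10 reads, the median Foxp3 level was 442 CPM in p1 columns 1 to 12, 404 CPM in p1 columns 13 to 24, 724 CPM in p2 and 1141 CPM in the small intestine, the last 2 from 5 cells each. The excess of p1 columns 1 to 12 thus lay in how many cells carried the transcript and not in the level of those that did.

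The change in Foxp3 followed the well columns. Each of the 12 first columns of p1 held 3 to 9 Foxp3 cells, a share of 27.3% to 81.8% (median 52.3%), whereas the 12 later columns held 0 to 4, a share of 0% to 30.8% (median 10.1%). Around the step at the middle of the plate, 5 of 11 cells in column 11, 7 of 10 in column 12, 2 of 13 in column 13 and 4 of 14 in column 14 were Foxp3 cells. Neighbouring columns also differed within the first 12, as from 81.8% in column 10 to 45.5% in column 11. Upper and lower plate rows did not show such a step: rows A to H and I to P of p1 columns 1 to 12 had shares of 55.7% and 52.4%. In the small intestine, all Foxp3 cells lay in rows A to H (7.25% of 69 cells against 0 of 68). Whether p1 columns 1 to 12 hold the Foxp3+ control sort is not given in the labels and was not tested.

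**Figure D1:**
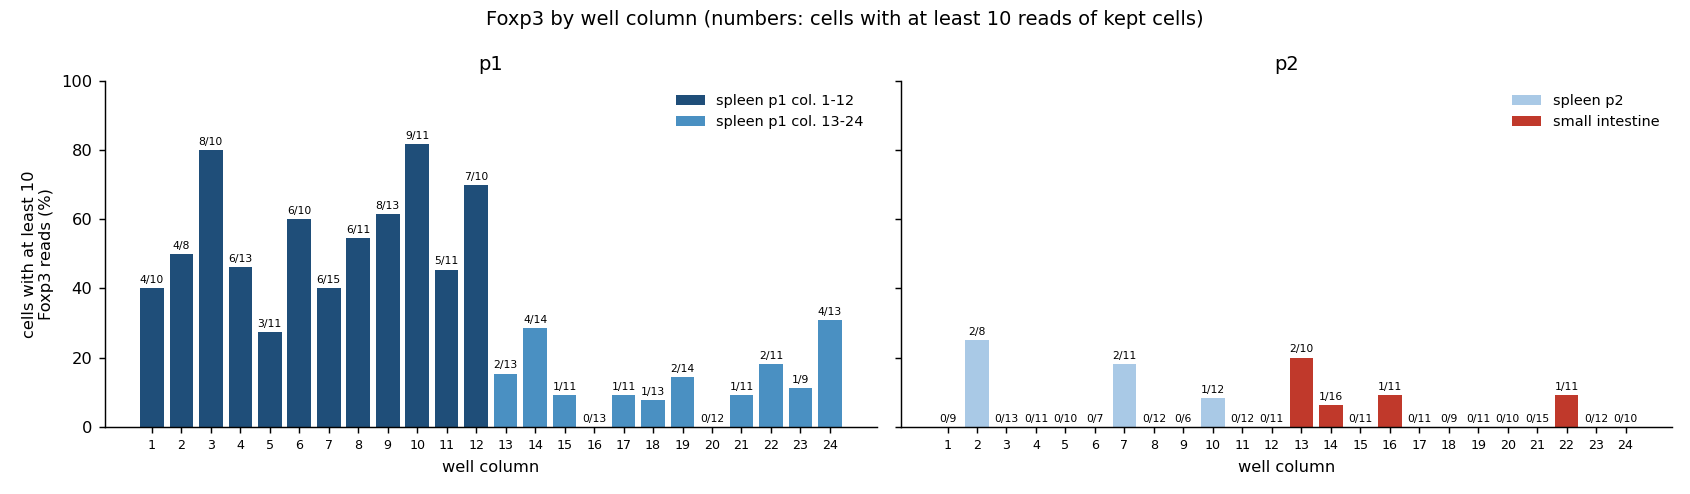
Share of kept cells with at least 10 Foxp3 reads (%, vertical axis) by well column of plates p1 and p2 (horizontal axis). The numbers above the bars give cells with at least 10 reads out of kept cells. In p1 the share is 45.5% and 70% in columns 11 and 12, and 15.4% and 28.6% in columns 13 and 14.

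Helios (Ikzf2) was also read in more spleen than small intestine cells, with smaller differences between the p1 sets than for Foxp3. At least 10 Ikzf2 reads were present in 54.9% of cells of p1 columns 1 to 12 (interval 46% to 63.5%), 40.7% of p1 columns 13 to 24 (interval 32.6% to 49.2%), 31.1% of p2 (interval 23.1% to 40.2%) and 19% of small intestine cells (interval 12.8% to 26.6%). Neighbours in this order overlapped in their intervals. Mean Ikzf2 was 317, 219, 129 and 55.8 CPM. The highest cells reached 3104, 2365, 1473 and 699 CPM, and the medians were 70.4 CPM in p1 columns 1 to 12 and 0 in the other 3 sets.

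Eos (Ikzf4) was rare and the only member with its highest level in the small intestine. It reached 10 reads in 18 of 137 small intestine cells (13.1%, interval 7.98% to 20%) against 5 cells (3.76%, interval 1.23% to 8.56%), 4 cells (2.76%, interval 0.757% to 6.91%) and 2 cells (1.64%, interval 0.199% to 5.8%) in the spleen sets. Mean Ikzf4 in the small intestine was 20.6 CPM, against spleen means of 4.78, 3.14 and 2.51 CPM, with a median of 0 in each set and highest cells at 353, 262, 170 and 264 CPM. The small intestine and p1 columns 1 to 12 overlapped slightly in their intervals, and the 3 spleen sets overlapped with each other. Summed over cells, 914 Ikzf4 reads were counted in the small intestine (Poisson interval 856 to 975) and 232, 170 and 100 in the spleen sets.

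CD25 (Il2ra) was most frequent in p1 columns 1 to 12. It reached 10 reads in 68.4% of cells of p1 columns 1 to 12 (interval 59.8% to 76.2%), 53.1% of p1 columns 13 to 24 (interval 44.6% to 61.4%), 32.8% of p2 (interval 24.6% to 41.9%) and 33.6% of small intestine cells (interval 25.7% to 42.1%). The intervals of the p1 sets overlapped slightly. Shares of p2 and small intestine cells could not be separated at this number of cells, but mean Il2ra was 182 CPM in p2 and 93.3 CPM in the small intestine. In p1 the means were 606 and 384 CPM. Cells with at least 10 reads had a median of 668, 618, 347 and 160 CPM in the 3 spleen sets and the small intestine, so that Il2ra differed both in how many cells carried it and in its level per positive cell.

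Neuropilin-1 (Nrp1) was read in many spleen cells and in few small intestine cells. At least 10 Nrp1 reads were present in 32.3% (interval 24.5% to 41%), 37.9% (interval 30% to 46.4%) and 28.7% (interval 20.9% to 37.6%) of cells of the 3 spleen sets, and in 4 of 137 small intestine cells (2.92%, interval 0.801% to 7.31%). The small intestine interval lay apart from all 3 spleen intervals, which overlapped one another. Mean Nrp1 was 220, 225 and 147 CPM in the spleen sets and 9.18 CPM in the small intestine, where the 5 highest cells carried 99.1% of the summed CPM. Highest cells were at 2234, 1773 and 2518 CPM in the spleen and at 664 CPM in the small intestine, with a median of 0 in every set. Nrp1 had no excess in p1 columns 1 to 12, where Foxp3 was most frequent.

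OX40 (Tnfrsf4) and GITR (Tnfrsf18) were read in most cells of every set. Tnfrsf4 reached 10 reads in 91.7% (interval 85.7% to 95.8%), 83.4% (interval 76.4% to 89.1%) and 75.4% (interval 66.8% to 82.8%) of cells of the spleen sets and in 79.6% of small intestine cells (interval 71.8% to 86%). Its median was 3060, 1727 and 828 CPM in the spleen sets and 717 CPM in the small intestine, with means of 3278, 2328, 1287 and 1055 CPM. Tnfrsf18 reached 10 reads in 91%, 90.3% and 75.4% of spleen cells and in 85.4% of small intestine cells (interval 78.4% to 90.8%). Its median was 906, 621 and 359 CPM in the spleen sets and 589 CPM in the small intestine, with means of 1019, 795, 501 and 692 CPM. The mean of Tnfrsf18 in the small intestine thus fell between spleen sets, and that of Tnfrsf4 was just below p2.

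**Figure D2:**
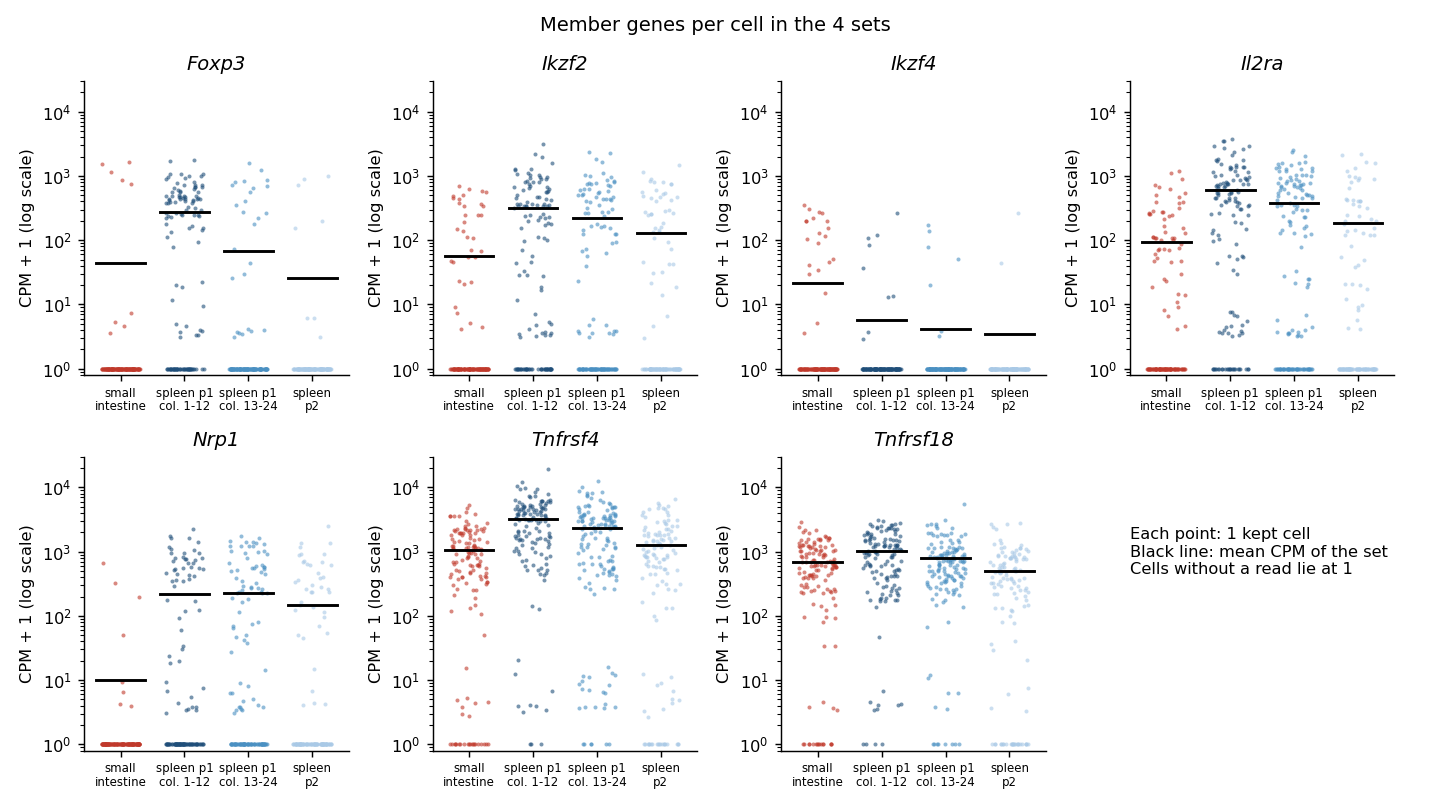
CPM + 1 of the 7 genes (log scale, vertical axes) in each kept cell (points) of the small intestine and the 3 spleen sets (horizontal axes), with the mean CPM of each set as a black line. Foxp3, Ikzf4 and Nrp1 split into cells without a read (at 1) and a group of positive cells, while Tnfrsf4 and Tnfrsf18 were read in most cells.

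**Figure D3:**
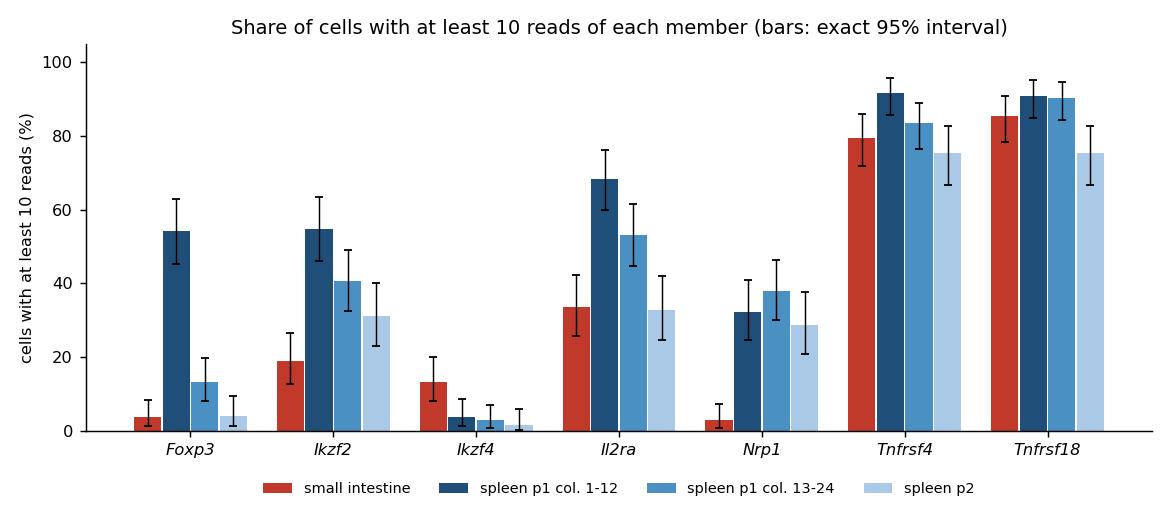
Share of kept cells with at least 10 reads of each gene (%, vertical axis) by gene (horizontal axis) in the small intestine (137 cells) and the 3 spleen sets (133, 145 and 122 cells), with exact 95% binomial intervals. Nrp1 is at 2.92% in the small intestine and Ikzf4 at 13.1%, the reverse order of the spleen.

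Tissues were compared by dividing mean CPM + 1 of the small intestine by that of each spleen set (log2 ratio), beside all genes with a mean of at least 10 CPM over kept cells. Of the 7 genes, 6 passed this limit, and Ikzf4, at 7.87 CPM, did not. Ikzf2 and Nrp1 (2 of 6) lay 2-fold or more below each of the 3 spleen sets, where 10.5% of 8384 genes did. None of the 6 lay 2-fold or more above each, as did 4.15% of all genes, although Ikzf4, under the limit, was 3.74-fold to 6.16-fold higher. With a pseudocount of 10 CPM the log2 ratios of Ikzf4 fell from 1.90, 2.39 and 2.62 to 1.05, 1.22 and 1.29. Nrp1 was 21.7-fold, 22.2-fold and 14.5-fold lower than in the earlier and the later columns of p1 and in p2, and Ikzf2 5.59-fold, 3.87-fold and 2.28-fold lower. The median log2 ratio of all genes was -0.20, -0.22 and -0.23. TMM scaling moved these medians by 0.18 to 0.24 and DESeq2 size factors by 0.20 to 0.25. With either of them Nrp1 alone was 2-fold below each set, where 7.74% and 7.6% of all genes were. Ikzf2 over p2 was then at -0.95 and -0.94.

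Il2ra and Tnfrsf4 were lower than in each spleen set without reaching 2-fold against p2. The log2 ratios of Il2ra were -2.69, -2.03 and -0.96, and those of Tnfrsf4 -1.63, -1.14 and -0.29. Foxp3 changed sign with the spleen set, at -2.66 and -0.64 over the p1 sets and 0.80 over p2. The positive Foxp3 ratio rested on few cells, as the 5 highest carried 99.7% of the Foxp3 CPM in the small intestine and 99.6% in p2. The share of cells with 10 Foxp3 reads was 3.65% and 4.1% there. Without the highest 5% of cells the means were 0.0476 and 0.0623 CPM. Tnfrsf18 also changed sign, at -0.56, -0.20 and 0.47, and its ratio over p1 columns 13 to 24 was 0.02 with DESeq2 size factors. A statement on Foxp3 or Tnfrsf18 between tissues therefore depends on which spleen wells are taken.

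**Figure D4:**
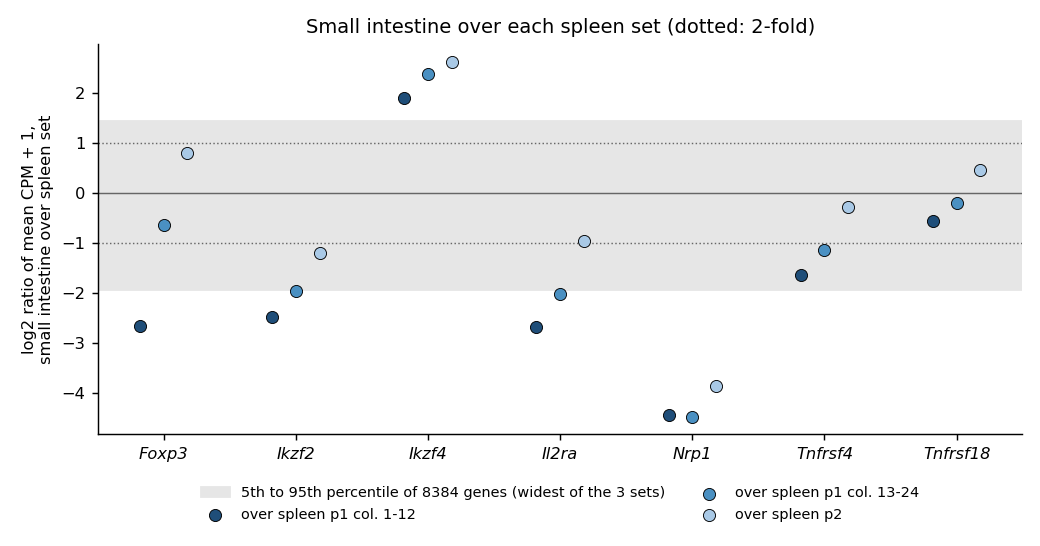
Small intestine mean CPM + 1 divided by that of each of the 3 spleen sets (log2, vertical axis) for the 7 genes (horizontal axis). Dotted lines mark a 2-fold difference and the grey band the 5th to 95th percentile of 8384 genes (widest of the 3 sets, -1.95 to 1.44). Nrp1 lies below the band against all 3 sets. Ikzf4 lies above it, but its mean of 7.87 CPM is under the limit of 10 CPM that the genes of the band passed.

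The spleen sets differed among themselves in these genes. Between p1 columns 1 to 12 and 13 to 24, only Foxp3 (1 of 6) was 2-fold or more higher in the former, at 4.04-fold, where 3.35% of all genes were. Il2ra was 1.58-fold, Ikzf2 1.45-fold, Tnfrsf4 1.41-fold and Tnfrsf18 1.28-fold higher there, and Nrp1 1.03-fold lower. Compared with p2, 5 of the 6 genes were 2-fold or more higher in p1 columns 1 to 12, where 5.57% of all genes were: Foxp3 10.96-fold, Il2ra 3.32-fold, Tnfrsf4 2.55-fold, Ikzf2 2.45-fold and Tnfrsf18 2.03-fold. Nrp1, the exception, was 1.49-fold higher. For p1 columns 13 to 24 over p2, Foxp3 (2.72-fold) and Il2ra (2.10-fold), 2 of 6, passed 2-fold, where 5.42% of all genes did. Il10, whose reporter served to sort the cells, also reached 10 reads in fewer cells of p2 (73 of 122) than of the p1 sets (116 of 133 and 119 of 145), and its part in these differences was not tested.

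Co-expression was examined by dividing the cells of each set by their Foxp3 reads into Foxp3-high cells (at least 10 reads) and cells with 0 reads. Cells with 1 to 9 reads (13, 7, 3 and 4 in the 3 spleen sets and the small intestine) were left out. The p1 sets held 72 and 19 Foxp3-high and 48 and 119 Foxp3-zero cells, whereas p2 and the small intestine held 5 Foxp3-high cells each. Foxp3-high cells had a median of 368780 reads against 365868 in p1 columns 1 to 12 and 385565 against 354055 in p1 columns 13 to 24. They also had more genes detected, with medians of 3526 against 3228 and 3358 against 3290, and any epithelial marker in 27.8% against 18.8% and 5.26% against 12.6% of cells. The part of these differences in the results was not tested.

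Of the other 5 genes that passed the limit on mean CPM, 2 were 2-fold or more higher in Foxp3-high cells of p1 columns 1 to 12 (Il2ra and Tnfrsf18), where 11.2% of 8383 genes were, and none was 2-fold lower, as were 9.71% of genes. In p1 columns 13 to 24, 2 were higher (Ikzf2 and Tnfrsf18), where 8.46% of genes were, and 1 was lower (Nrp1), where 22.1% of genes were. Of these 5, Tnfrsf18 alone thus was 2-fold or more higher in both p1 sets, where 2.14% of genes were. Its mean levels were 1350 against 583 CPM and 1419 against 709 CPM. The second of these ratios lay at the limit itself, and its log2 value was 0.75 to 0.99 under 4 alternatives. Ikzf4, under the limit on mean CPM, had means of 8.8 against 0 CPM and 20.2 against 0.6 CPM. Its ratios, 9.8-fold and 13.25-fold, thus depend on the pseudocount of 1 CPM. They rested on 5 of 72 and 3 of 19 Foxp3-high cells with 10 reads.

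Il2ra had the largest ratio of the 5 genes in p1 columns 1 to 12. It reached 10 reads in 63 of 72 Foxp3-high cells (87.5%, interval 77.6% to 94.1%) and in 20 of 48 Foxp3-zero cells (41.7%, interval 27.6% to 56.8%), with mean levels of 943 and 142 CPM. In p1 columns 13 to 24 the shares were 73.7% (interval 48.8% to 90.9%) and 49.6% (interval 40.3% to 58.9%), with mean levels of 445 and 364 CPM. The Il2ra ratio was thus 6.61-fold in the first set and 1.22-fold in the second. Foxp3-zero cells of the 2 sets themselves differed in Il2ra, the mean being lower in columns 1 to 12.

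Ikzf2 was more frequent in Foxp3-high cells of both p1 sets, in 65.3% (interval 53.1% to 76.1%) against 37.5% (interval 24% to 52.6%) and in 78.9% (interval 54.4% to 93.9%) against 34.5% (interval 26% to 43.7%). These intervals did not overlap within either set, but in p1 columns 1 to 12 they nearly met (53.1% and 52.6%). The share of all genes with intervals apart in this way was not computed. Mean Ikzf2 was 360 against 249 CPM (1.44-fold) and 536 against 170 CPM (3.14-fold). Ikzf2 was also read in cells without Foxp3. Of the Ikzf2 cells, 18 of 73 in p1 columns 1 to 12, 41 of 59 in p1 columns 13 to 24, 35 of 38 in p2 and 23 of 26 in the small intestine had no Foxp3 read, where 48 of 133, 119 of 145, 114 of 122 and 128 of 137 of all cells had none.

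Ikzf4 cells were few in the spleen. All 5 Ikzf4 cells of p1 columns 1 to 12 and 3 of the 4 of p1 columns 13 to 24 were Foxp3-high. Of all cells of these sets, 72 of 133 and 19 of 145 were Foxp3-high. Both Ikzf4 cells of p2 had no Foxp3 read, like 114 of all its 122 cells. None of 48 Foxp3-zero cells of p1 columns 1 to 12 carried Ikzf4, which allows a share of up to 6.25%. In the small intestine 17 of 18 Ikzf4 cells had no Foxp3 read, a share (94.4%) close to that of all its cells (128 of 137), and 13.3% of Foxp3-zero cells carried Ikzf4 (interval 7.93% to 20.4%), against 0.84% of those of p1 columns 13 to 24 (interval 0.0213% to 4.59%) and 1.75% in p2 (interval 0.213% to 6.2%).

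Nrp1 was not more frequent in Foxp3-high cells in any set. It reached 10 reads in 29.2% of Foxp3-high and 39.6% of Foxp3-zero cells of p1 columns 1 to 12, and in 21.1% and 41.2% in p1 columns 13 to 24, with overlapping intervals in each. Mean levels were 186 against 287 CPM and 58.4 against 249 CPM. In p2, all 35 Nrp1 cells lacked a Foxp3 read, and in the small intestine all 4 did. Most cells of these sets lacked one (114 of 122 and 128 of 137).

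Tnfrsf4 reached 10 reads in 98.6% of Foxp3-high and 81.2% of Foxp3-zero cells of p1 columns 1 to 12, and in 94.7% and 82.4% in p1 columns 13 to 24. Tnfrsf18 was read at that depth in 97.2% and 81.2%, and in 100% and 89.1%. In p2 and the small intestine, all 5 Foxp3-high cells of each carried both receptors, but the intervals, from 47.8%, are wide. Mean Il10 was 1969 CPM in Foxp3-high and 1918 CPM in Foxp3-zero cells of p1 columns 1 to 12, and 1935 and 1904 CPM in columns 13 to 24. Il10 shares were less alike, at 94.4% (interval 86.4% to 98.5%) against 75% (interval 60.4% to 86.4%) and at 94.7% against 79.8%.

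**Figure D5:**
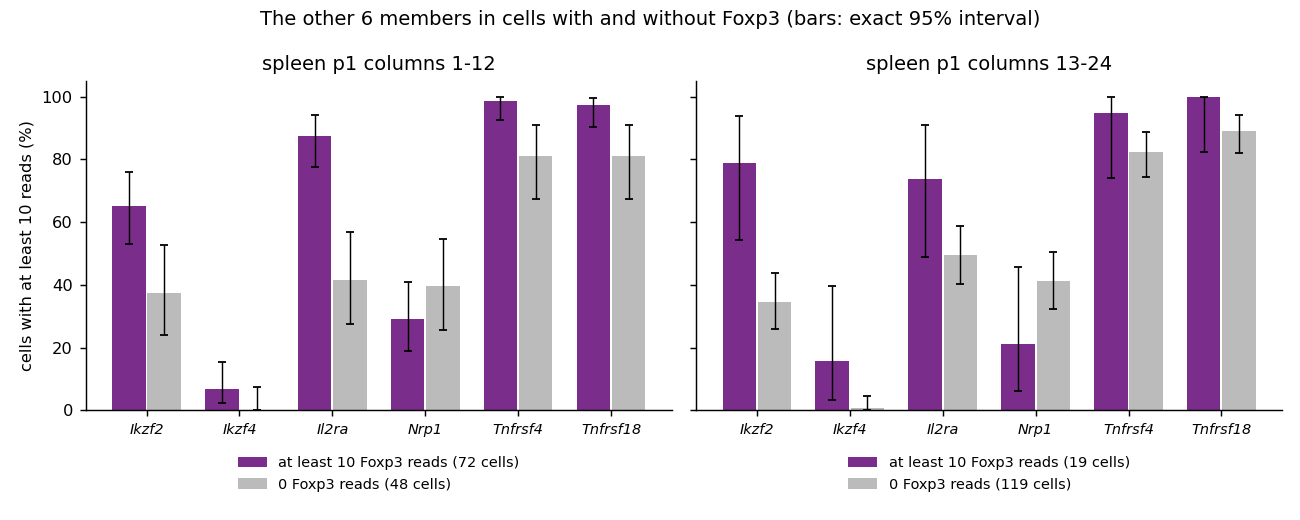
Share of cells with at least 10 reads of each of the other 6 genes (%, vertical axis) among Foxp3-high and Foxp3-zero cells of the 2 p1 spleen sets, with exact 95% binomial intervals. Ikzf2 is more frequent in Foxp3-high cells of both sets (65.3% against 37.5% and 78.9% against 34.5%), and Nrp1 is not.

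Per cell, Foxp3-high cells carried more of the other 6 transcripts. A mean of 3.85 of the 6 (SD over cells 0.85) reached 10 reads in Foxp3-high cells of p1 columns 1 to 12 against 2.81 (SD 1.3) in Foxp3-zero cells, and 3.84 (SD 0.958) against 2.97 (SD 1.08) in p1 columns 13 to 24. At least 5 of the 6 were found in 19.4% and 21.1% of Foxp3-high and in 6.25% and 4.2% of Foxp3-zero cells. The most common combination in p1 columns 1 to 12 was Foxp3, Ikzf2, Il2ra, Tnfrsf4 and Tnfrsf18 without Nrp1 or Ikzf4 (26 cells, 19.5%, interval 13.2% to 27.3%). In p1 columns 13 to 24 it was Il2ra, Nrp1, Tnfrsf4 and Tnfrsf18 without Foxp3 (20 cells, 13.8%, interval 8.63% to 20.5%). Among small intestine cells, Tnfrsf4 and Tnfrsf18 alone were most common (44 cells, 32.1%, interval 24.4% to 40.6%), followed by these 2 with Il2ra (26 cells, 19%). Cells without any of the 7 at 10 reads were 11 in p2 and 1 to 4 in the other sets. All 7 together were found in 2 cells of p1 columns 1 to 12, 1 cell of p1 columns 13 to 24 and in no cell of the other sets, which allows up to 2.46% in p2 and 2.19% in the small intestine.

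Among cells without a Foxp3 read, Nrp1 and Ikzf2 were lower in the small intestine too. Mean Nrp1 was 287, 249 and 157 CPM in such spleen cells and 9.83 CPM in the small intestine, and mean Ikzf2 249, 170 and 134 against 48.4 CPM. For Il2ra the log2 ratio over p1 columns 1 to 12 went from -2.69 to -0.66, while over p1 columns 13 to 24 it stayed at -2.01. Tnfrsf18 over p1 columns 1 to 12 changed sign, from -0.56 to 0.21.

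Spearman correlations over the cells of a set are given as a description. Tnfrsf4 and Tnfrsf18, whose genes lie close together on chromosome 4 (chr4:156013595-156016613 and chr4:156026322-156028894, GRCm38.p6), had the highest correlation of any pair in each set, at 0.61, 0.43 and 0.53 in the spleen sets (133, 145 and 122 cells) and 0.56 in the small intestine (137 cells). Reads of both were also correlated with the total reads of a cell, at 0.29 and 0.31, 0.31 and 0.36, and 0.33 and 0.29 in the spleen sets and 0.14 and 0.23 in the small intestine, and the part of depth in their correlation was not tested. Tnfrsf4 was correlated with Il10 at 0.34, 0.35, 0.51 and 0.23 in the same order. Foxp3 and Il2ra were at 0.49 in p1 columns 1 to 12 and at 0.13, 0.28 and -0.04 elsewhere. Foxp3 and Nrp1 were between -0.18 and -0.05 in all 4 sets, and Ikzf2 and Il2ra between -0.06 and 0.10.

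Of 6852 genes with at least 10 reads in 10% of the cells of p1 columns 1 to 12, the 8 most correlated with Foxp3 there were Il2ra (0.49), Tnfrsf1b (0.48), Il2rb (0.44), Capg (0.44), C1qtnf6 (0.41), Tnfrsf18 (0.40), Il21r (0.39) and Itgav (0.39). In p1 columns 13 to 24, which the ranking did not use, they were at 0.13, 0.24, 0.23, 0.26, 0.27, 0.31, 0.16 and 0.17, where 5% of these genes lay above 0.17. Tnfrsf1b encodes TNF receptor 2, Il2rb the beta chain of the IL-2 receptor and Capg an actin-capping protein. Ccdc22, at 0.38 and rank 10, was at 0.46, 0.39 and 0.37 in p1 columns 13 to 24, p2 and the small intestine. It was singled out after its values were seen: in GENCODE its span shares 1437 bases with that of Foxp3 on the opposite strand, and without strand information its reads and those of Foxp3 cannot be told apart there. The 4 genes closest to Ikzf2 (Il2rb, Gm4956, Pcif1 and Itgav, 0.28 to 0.31) were between -0.13 and 0.09 in p1 columns 13 to 24. Those closest to Il2ra (Foxp3, Hint1, Snx9 and Pla2g12a, 0.39 to 0.49) were between 0.10 and 0.13.

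Other Treg-associated genes were read from 7 lists of 65 genes, of which 55 passed the limit on mean CPM. In the small intestine 8 (14.5%) were 2-fold or more below each spleen set, against 10.5% of all genes, and 4 (7.27%) above each, against 4.15%. With a pseudocount of 10 CPM, 5 were below each set, against 5.75% of all genes, and Lrrc32, Tnfrsf25 and Igfbp4, which have low means in a spleen set, no longer were. Among TNF receptor family genes and their adaptors (8 measured), 2 were below, Cd27 and Tnfrsf25, both costimulatory receptors, at 156 CPM against 593 to 971 CPM in the spleen sets and 10.4 against 25.4 to 60.3 CPM. Of the ligands of the members only Sema4a, a semaphorin described to bind neuropilin-1, passed, at 1.46 CPM against 67.5 to 106 CPM in the spleen. The other 4 ligands, Tnfsf4 (OX40 ligand), Tnfsf18 (GITR ligand), Sema3a and Vegfa, had means of at most 0.383 CPM in every set.

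Of 16 further genes known to be high in Treg cells, 3 were 2-fold or more below each spleen set (Gpr83, Lrrc32 and Izumo1r) and 3 above (Itgae, Areg and Fgl2). Izumo1r, the folate receptor 4 listed as Folr4, had a mean of 97.7 CPM against 913 to 1122 CPM in the spleen. Lrrc32, which encodes GARP, the carrier of latent TGF-beta, had no read in the small intestine and means of 85.7, 9.06 and 1.41 CPM in the spleen sets. Gpr83, which encodes a receptor, had none there either, with 57.3, 12 and 22.4 CPM in the spleen. Itgae, the integrin chain CD103 that binds epithelial E-cadherin, had 519 CPM against 1.46 to 38.6 CPM in the spleen. Areg, the growth factor amphiregulin, had 413 against 0.13 to 19.1 CPM, and Fgl2 203 against 8.41 to 88.3 CPM. Of 5 genes known to be low in Treg cells, the phosphodiesterase Pde3b was above (228 against 16.6 to 31.2 CPM) and Igfbp4 below each set (0.0728 against 6.88 to 125 CPM). Among 12 factors that act with or upstream of Foxp3, Bach2, a repressor of effector genes, was below (8.05 against 50.3 to 169 CPM), and none of 3 Ikaros family and 10 IL-2 receptor signalling genes passed either way.

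Between Foxp3-high and Foxp3-zero cells, 7 of the 55 list genes (12.7%) were 2-fold or more higher in both p1 sets, where 2.14% of genes were, and 7 (12.7%) lower, where 4.09% of genes were. These counts pool genes known to be high in Treg cells with genes known to be low in them. Of the 16 high genes, 4 (25%) were higher and 1 (6.25%) lower. The rest of them, Ctla4, Icos and Tigit included, did not pass in both sets. Of the 5 low genes, none was higher and 1 (20%) lower. The higher list genes were Tnfrsf9 (4-1BB) and Tnfrsf1b of the TNF receptor family, Socs2 of IL-2 receptor signalling, and Gpr83, Capg, Lrrc32 and Swap70. Mean Tnfrsf1b was 1508 CPM in Foxp3-high and 521 CPM in Foxp3-zero cells of columns 1 to 12, and 1882 and 756 CPM in columns 13 to 24. Capg had 891 against 262 CPM and 1033 against 394 CPM in the same order, Tnfrsf9 1487 against 515 CPM and 696 against 323 CPM, and Socs2, a cytokine-induced inhibitor of signalling, 195 against 43.7 CPM and 153 against 35.7 CPM. Lrrc32 reached 10 reads in 24 of 72 Foxp3-high and 2 of 48 Foxp3-zero cells of columns 1 to 12, and in 6 of 19 and 0 of 119 cells of columns 13 to 24. Gpr83 and Swap70 rested on 1 Foxp3-high cell each with 10 reads in columns 13 to 24.

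The lower list genes were the Ikaros factors Ikzf1 and Ikzf5, the NF-kappaB subunit Rel, Bach2, Sema4a, Il1rl1, which encodes the IL-33 receptor, and Cd40lg, the CD40 ligand. Il1rl1 was listed among genes high in Treg cells and so ran against its list, while Cd40lg was listed among genes low in them. Ikzf1 had 295 against 610 CPM and 206 against 542 CPM. Sema4a reached 10 reads in 2 of 72 Foxp3-high and 20 of 48 Foxp3-zero cells of columns 1 to 12, and in 2 of 19 and 43 of 119 cells of columns 13 to 24, and Cd40lg in 1 and 11 and in 2 and 38 of the same cells. Bach2 was found at that depth in 8 and 15 and in 0 and 22 cells, Rel in 6 and 8 and in 0 and 23, Ikzf5 in 5 and 8 and in 0 and 12, and Il1rl1 in 0 and 2 and in 0 and 18. None of 19 cells allows a share of up to 15.8%. The median log2 ratio of all genes was 0.03 in columns 1 to 12 and -0.14 in columns 13 to 24.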

How the data were processed

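Counts of reads per gene, 1 column per cell, were deposited by the authors. Their methods describe 2-pass alignment with STAR, and the processing notes name mm10 where the methods name another build. The counting tool and annotation of the deposited counts are not given in the sources used here. The reporter row, 0.00979% of reads, was left out, 2 names occurred more than once, and all columns were used. Of the gene rows, 88 join several gene names.

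Cells were removed when log reads or log genes lay over 3 median absolute deviations below the tissue median, the limit the study's methods give for these measures, or when cyclone (scran 1.30.0) called them S or G2M. The methods' filter on mitochondrial share was not applied. For removal the methods name only G2/M, whereas the study's results also name S phase. CPM was computed per cell over gene rows. Ratios used a pseudocount of 1 CPM, which understates the ratio of low genes, and genes with a mean of at least 10 CPM. No significance test was run, because the labels name no replicate animals. The code for the ratios was tested on simulated data.

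The members and lists were chosen with earlier results of these data known. Named are the 7 genes, list genes 2-fold from each spleen set or between Foxp3 classes of both p1 sets, the 8 closest correlates of Foxp3, 4 each for Ikzf2 and Il2ra, and Il10. Lists and markers came from general knowledge.

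SMART-seq2 reads carry no strand. In GENCODE, Foxp3 overlaps Flicr, Ppp1r3f, Gm36995 and Ccdc22, Ikzf2 3 and Ikzf4, Il2ra, Nrp1 and Tnfrsf18 1 further gene each, so reads in shared parts are uncertain. Promoters came from RefSeq (GRCm38.p6), which held a window for 5 of the 7 genes. Tnfrsf4 and Nrp1 are not printed because their window does not end at the gene start. Alternatives were other pseudocounts, filters, scalings (TMM in edgeR 4.0.16, DESeq2 1.42.0), read limits and thinning to 200000 reads.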

Additional observations from a re-analysis of the deposited data

Results flagged for a closer look

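Foxp3 was also read in cells called S or G2M, which the main comparisons left out. At least 10 Foxp3 reads were present in 32 of 47 such cells of spleen p1 columns 1 to 12 (68.1%, interval 52.9% to 80.9%), 9 of 39 of p1 columns 13 to 24 (23.1%, interval 11.1% to 39.3%), 3 of 57 of p2 (5.26%, interval 1.1% to 14.6%) and 3 of 34 in the small intestine (8.82%, interval 1.86% to 23.7%). The order of the spleen sets was that of the kept cells, and each interval overlapped that of the kept cells of its set. These shares stand out only in that the main comparisons did not use the cells, which were kept only under alternatives.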

How the results depend on the processing

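No paired analysis was possible because each sample is 1 cell and no label ties cells of the tissues to an animal. The small intestine lay 2-fold or more below each spleen set in 2 of 6 members (Ikzf2 and Nrp1), beside 10.5% of all genes. It did so in 1 with TMM factors (7.74% of all genes) and 1 with DESeq2 size factors (7.6%). With S and G2M cells kept it was 3, Il2ra being added (8.3% of all genes). Without spleen p1 columns 1 to 12, an alternative chosen after seeing the data, it was 2, with none above. The share of all genes was not computed for that alternative. With genes of at least 1 CPM, or with no filter on low genes, 1 member (Ikzf4) lay above, as did 5.81% and 3.8% of all genes. With 1 read in place of 10, the Foxp3 share of p1 columns 1 to 12 was 63.9%. In p1 columns 13 to 24, 1 other member in place of 2 was 2-fold higher in Foxp3-high cells when these needed 1 read or 100 reads, when S and G2M cells were kept, or after thinning to 200000 reads. The share of all genes was not computed under these alternatives. With a pseudocount of 10 CPM, 5 list genes in place of 8 lay below each spleen set, where 5.75% of all genes did. Of the 21 member ratios over spleen sets, 19 had 1 sign under every alternative run, the exceptions being Tnfrsf18 over the p1 sets. Leaving out the highest 5% of cells was run for mean levels and not for these ratios. No ratio past 2-fold changed sign. Of 165 member ratios under alternatives, 150 moved by less than the SD over the spleen sets, 129 of 140 shares stayed within their intervals, and 20 of 112 mean levels within their narrow Poisson intervals. That SD is a wide yardstick, from 0.344 log2 for Nrp1 to 1.74 for Foxp3. Ikzf2 over p2 stayed within it although it fell under 2-fold with TMM and DESeq2 scaling. The number of cells limits Ikzf4 in the spleen and, with 5 Foxp3-high cells each, co-expression in p2 and the small intestine. Thinning to 200000 reads gave Ikzf4 in 11.4% of small intestine cells, against 13.1%.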
